A study of Mus musculus with 46 samples.

Results

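The transcripts described here are 34 genes whose products are made by the enzyme-secreting acinar cells of the pancreas, measured in RNA from isolated mouse islets. They were taken from a list of gene symbols, and all 34 were found among the 55487 genes of each deposited table. The list holds 9 trypsinogens, 6 elastases and chymotrypsins, 2 carboxypeptidases, 6 lipases with colipase, an amylase and a ribonuclease, 6 genes of the Reg family and 3 proteins of the zymogen granule.

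Acinar cells fill zymogen granules with inactive digestive enzymes and release them into the pancreatic ducts. Islets are embedded in this exocrine tissue, and acinar cells, their fragments or their free RNA commonly stay with islets through the digestion and picking that isolate them. In bulk RNA a smaller number of acinar cells and less enzyme RNA in each cell cannot be told apart. Reg proteins are small secreted lectin-like proteins of the exocrine pancreas that are known to vary with inflammation and feeding.

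The study, whose title concerns signals from mitochondria to the identity and maturity of metabolic tissues, sequenced 33 islet libraries and 13 liver libraries, the latter 6 of control, 4 of Mfn DKO and 3 of Tfam KO livers, all with AAVliver in their labels. The first set of islets held 5 libraries of Tfam control and 4 of Tfam KO from females, and 3 of Tfam control and 2 of Tfam KO from males. The second set held 4 libraries of Clec16a control and 4 of Clec16a KO on a diet labelled RFD, and 6 of Clec16a control and 5 of Clec16a KO on a diet labelled HFD. The alleles, any Cre driver, the ages, the wording behind RFD and HFD and, for the Clec16a islets, the sex of each library are not given in the sources used here. The labels number the libraries as biological replicates without naming animals, so p-values measure the spread between these libraries. After isolation, the islets spent a night in culture.

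Total counts per islet library ran from 16235173 to 83342809. The summed level of 8 islet endocrine markers, the hormones among them, was 191655 to 394766 CPM (a gene's counts scaled to a common library total) in the islets and 0 to 0.223 CPM in the livers. Tfam itself lay at 35.9 to 39.0 CPM in Tfam control and at 17.3 to 20.4 CPM in Tfam KO islets. Clec16a lay at 19.1 to 29.1 CPM in control and 23.3 to 33.3 CPM in islets labelled Clec16a KO, so the label did not show in the gene's total count. A count over the whole gene also holds exons outside a deleted part, and the deleted part is not given in the sources used here. No pair of libraries of a group agreed within counting noise.

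Of the 34 genes, 16 lie on chromosome 6 (GRCm38). The 9 trypsinogens stand within 560.3 kb, from 40964754 to 41525079, and the 6 Reg genes within 98.2 kb, from 78370657 to 78468872. The trypsinogens are near copies of each other: the reading frames of their GENCODE M21 transcripts were 69.7% to 97.6% identical over 36 pairs. Gm5771 and Prss1 shared 97.6% of the bases, Gm5771 and Prss3 96.2%, and Try4 and Try5 97.4%. The longest run of identical bases was 147 between Gm5771 and Prss1 and 173 between Prss1 and Prss3. It was 197 between Gm5771 and Prss3 and 274 between Try4 and Try5. Reads were 151 bases long, which among these exceeds only the run of 147, and the split of reads within these pairs is uncertain. In the main tests below, the genes called for diet were Gm5771 and Prss3 and not Prss2. The same 90 bases of the reading frames are therefore shown for these genes and their near copies Prss1 and Try4. Capitals mark each base that differs from Gm5771.
Gm5771: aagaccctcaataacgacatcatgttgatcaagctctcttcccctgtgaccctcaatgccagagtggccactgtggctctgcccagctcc
Prss3: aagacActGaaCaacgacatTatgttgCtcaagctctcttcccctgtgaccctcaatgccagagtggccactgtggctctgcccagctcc
Prss1: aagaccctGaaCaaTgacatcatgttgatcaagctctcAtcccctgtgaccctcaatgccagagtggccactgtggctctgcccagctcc
Try4: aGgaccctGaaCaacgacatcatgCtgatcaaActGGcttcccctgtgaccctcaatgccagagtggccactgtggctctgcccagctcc
Prss2: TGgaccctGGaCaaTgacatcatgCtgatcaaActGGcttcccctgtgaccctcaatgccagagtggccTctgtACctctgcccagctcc
Over these 90 bases Prss3 differed from Gm5771 at 5 bases, Prss1 at 4, Try4 at 7 and Prss2 at 13.

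The acinar program depends on the PTF1 complex, in which Ptf1a with a partner binds an E-box (CANNTG) and Rbpjl or Rbpj binds the letters TGGGAA close by. The 250 bases before the transcription start, as given by RefSeq on GRCm38.p6, were found for 28 of the 34 genes. TGGGAA, searched on both strands, stood in 19 of these 28 promoters (67.9%) and in 24.0% of the promoters of the other 26997 genes. CANNTG stood in 24 of 28 (85.7%) against 69.3%, and both within 40 bases of each other, counted between their starts, in 12 of 28 (42.9%) against 7.22%. A match is a description of the letters and shows no binding. The promoters of Gm5771 and Prss2, which went opposite ways with diet, and of Ctrb1 and Cpa1, which stand for the main group of enzymes, are shown with both motifs in capitals. They lie at chr6:41392106-41392355 (plus strand), chr6:41521526-41521775 (plus), chr8:111691011-111691260 (minus) and chr6:30638968-30639217 (plus).
Gm5771: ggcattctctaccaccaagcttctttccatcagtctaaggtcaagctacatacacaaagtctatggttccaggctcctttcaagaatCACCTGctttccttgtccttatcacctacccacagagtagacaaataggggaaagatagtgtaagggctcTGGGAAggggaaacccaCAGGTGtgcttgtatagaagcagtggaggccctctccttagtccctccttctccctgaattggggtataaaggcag
Prss2: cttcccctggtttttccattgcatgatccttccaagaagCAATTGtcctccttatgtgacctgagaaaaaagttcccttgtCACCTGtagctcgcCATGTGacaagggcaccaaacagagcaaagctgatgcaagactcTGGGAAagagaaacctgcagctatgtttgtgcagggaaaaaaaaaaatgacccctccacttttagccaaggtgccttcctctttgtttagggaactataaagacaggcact
Ctrb1: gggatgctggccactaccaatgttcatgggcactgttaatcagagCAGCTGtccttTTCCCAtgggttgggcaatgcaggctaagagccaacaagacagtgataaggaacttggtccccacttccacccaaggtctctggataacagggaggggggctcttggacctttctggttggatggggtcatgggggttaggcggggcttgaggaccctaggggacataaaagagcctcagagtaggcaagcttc
Cpa1: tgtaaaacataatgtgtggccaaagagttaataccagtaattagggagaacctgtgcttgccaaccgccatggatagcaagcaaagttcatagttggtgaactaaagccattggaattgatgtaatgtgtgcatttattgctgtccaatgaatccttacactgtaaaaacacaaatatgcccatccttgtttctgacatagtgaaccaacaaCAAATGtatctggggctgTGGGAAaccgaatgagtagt
TGGGAA or its reverse complement stood in all 4 windows, and within 40 bases of an E-box in those of Gm5771, Ctrb1 and Cpa1. No match was sought for any other factor.

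Acinar transcripts were found in every islet library, and their summed share differed widely between libraries. The 34 genes made up 0.162% to 3.20% of all counts in the Tfam islets, a 19.8-fold range, and 0.295% to 4.15% in the Clec16a islets, a 14.1-fold range, each over all groups of the set. Within a group the ranges were narrower, for example 0.162% to 1.38% in female Tfam controls and 0.708% to 1.42% in Clec16a controls on RFD. Between 33 and 34 of the genes had at least 1 count in each islet library. In the livers, a tissue without acinar cells, the same genes made up 0.00104% to 0.00811% of counts, most of it Cela1, which reached 78.9 CPM there.

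In the Tfam islets of females the share was 0.623%, 0.777%, 0.728%, 1.38% and 0.162% in the 5 control libraries. It was 0.455%, 0.278%, 0.267% and 0.695% in the 4 KO libraries of females. In males it was 1.001%, 0.326% and 0.737% in the controls and 3.20% and 0.663% in the KO libraries. Male KO replicate 1 stood apart from all other Tfam islets: it held the highest CPM of 33 of the 34 genes. Female control replicate 5 held the lowest CPM of 25 of the 34. The genotypes overlapped in each sex.

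In the Clec16a islets on RFD the share was 1.14%, 1.42%, 1.19% and 0.708% in the controls and 0.325%, 0.295%, 0.759% and 2.11% in the KO libraries. On HFD the 6 control libraries ran from 1.43% to 4.15%, with a median of 2.17%. The 5 KO libraries on HFD were at 2.26%, 1.69%, 1.503%, 1.93% and 3.08%. The control groups of the 2 diets did not overlap, whereas KO replicate 4 on RFD lay within the range of the KO libraries on HFD. The 95% binomial intervals of these shares, by Wilson's method, were narrow, for example 4.15% to 4.16% for the highest, and cover counting error only.

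**Figure D1:**
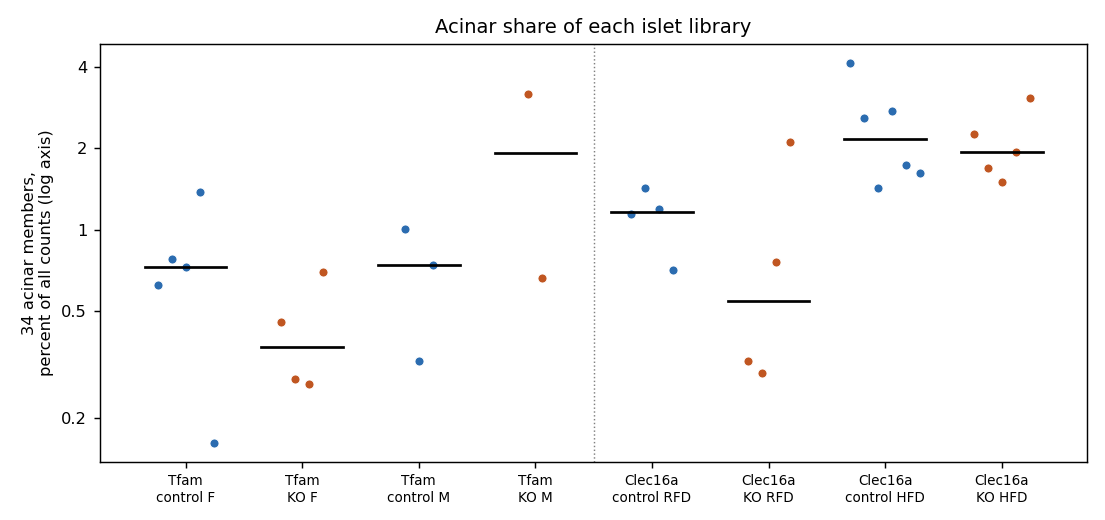
Summed share of the 34 acinar transcripts in each islet library, in percent of all counts on a log axis. Points are libraries, blue for control and orange for KO, and lines are group medians. A single male Tfam KO library reached 3.20%, and the Clec16a control libraries on HFD all lay above those on RFD.

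The genes kept their proportions to each other far more than their level. Numbers of genes that moved the same way, given below, are therefore not independent results. Elastases and chymotrypsins made up 36.5% to 39.0% of the acinar counts in every Tfam islet library and 34.6% to 41.2% in every Clec16a library. The carboxypeptidases held 10.4% to 11.8% and 12.5% to 15.5%, and the lipases with colipase 19.7% to 23.2% and 18.8% to 25.8%. The trypsinogens held 19.4% to 23.8% in the Tfam islets and 12.9% to 18.3% in the Clec16a islets, ranges that did not meet. Nor did those of the carboxypeptidases, of the amylase with the ribonuclease (1.95% to 2.48% and 2.91% to 4.85%) or of the granule proteins (2.05% to 2.91% and 2.98% to 3.55%). The 2 sets of islets were fitted apart, and a set, its mice and its sequencing cannot be told apart here.

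By the authors' TPM, which takes length into account, Ctrb1 was the most abundant transcript in both sets, with a median of 3097 TPM in the Tfam and 6540.1 TPM in the Clec16a islets. Ctrb1 encodes chymotrypsinogen B, a major serine protease zymogen. Prss2, the leading trypsinogen, followed with medians of 1158 and 3036 TPM. Try4 was close to Prss2 in the Tfam islets, with 1065 TPM, but at 679.9 TPM in the Clec16a islets. For the other roles, the gene with the highest mean TPM over all islets was taken: Cpa1, carboxypeptidase A1 (medians 431 and 1545 TPM), Clps, the colipase that anchors pancreatic lipase (556 and 2069 TPM), and Rnase1, pancreatic ribonuclease (340.1 and 1221 TPM). For the Reg family and the granule proteins these were Reg1 (298 and 859.6 TPM) and Sycn, the granule protein syncollin (185 and 1097 TPM). The lowest medians were those of Reg3g (0.139 and 0.441 TPM) and of the trypsinogen 1810009J06Rik, at 1.86 TPM in the Tfam islets and 0 in the Clec16a islets. Amy2b is annotated as an unprocessed pseudogene in GENCODE M21, and reads of other amylase genes could fall on it. Ctrc overlaps Cela2a on the same strand, so that its counts are uncertain as well.

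**Figure D2:**
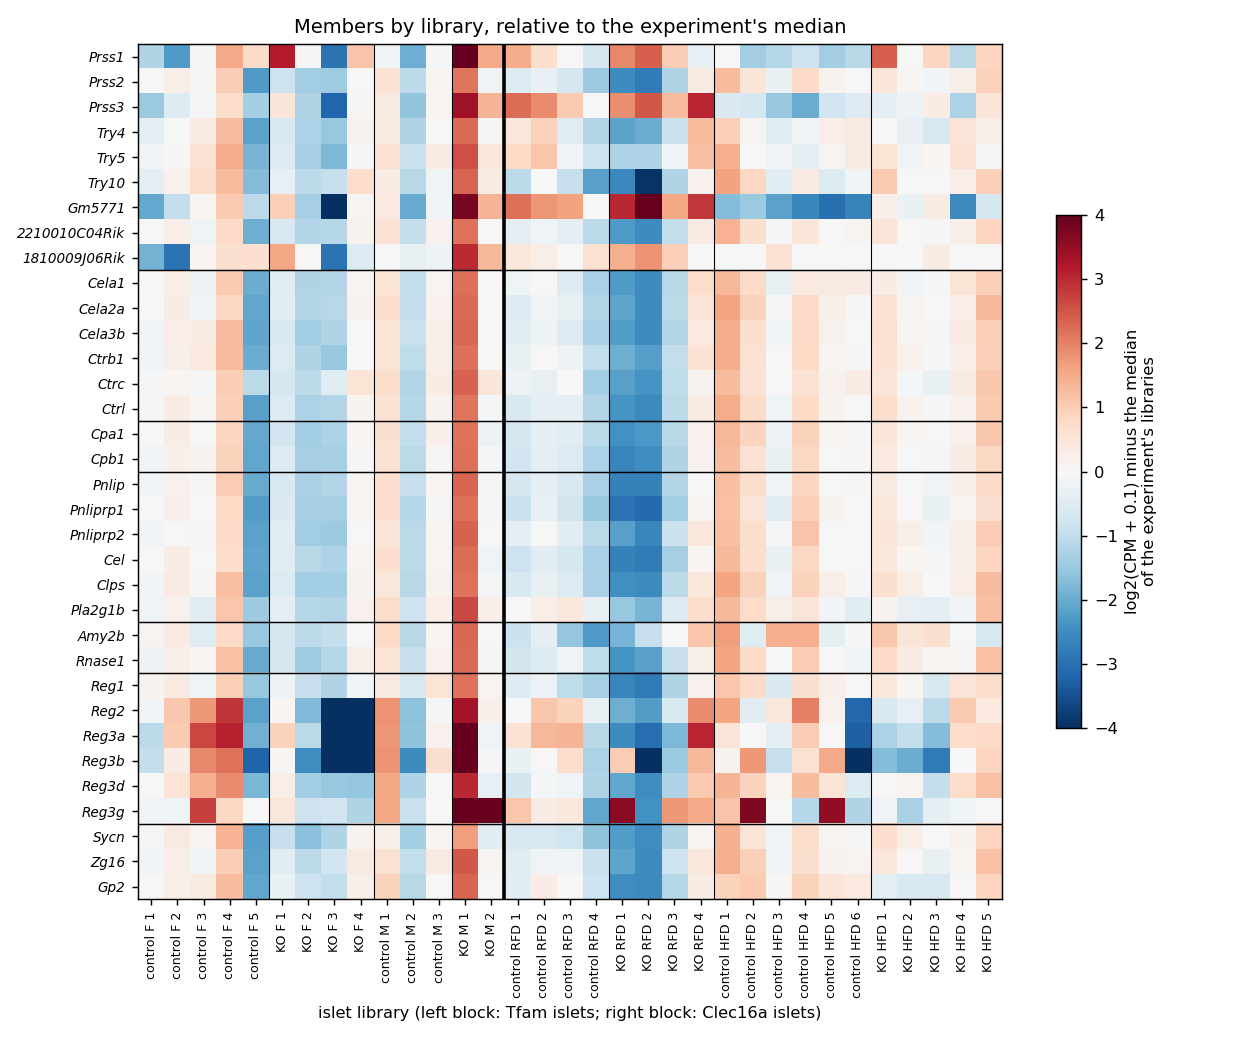
Each of the 34 genes (rows, grouped by role) in each of the 33 islet libraries (columns), as log2(CPM + 0.1) minus the median over the libraries of its experiment, with colours saturating at 4 either way. Most rows share 1 pattern across libraries, while Gm5771, Prss3, Prss1 and the Reg2 and Reg3 genes do not follow it.

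To put single genes against the amount of acinar RNA in a library, counts were also expressed per 1000 counts of 14 enzymes, the elastases, chymotrypsins, carboxypeptidases, lipases and colipase. On this scale Prss2 ran only from 69.7 to 93.2 over all 33 libraries, and the trypsinogen 2210010C04Rik from 64.3 to 89.0. Reg1 ran from 18.995 to 35.3. Gm5771, a gene model of the trypsinogen family, ran instead from 0.0121 to 18.2.

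Loss of Tfam was first compared with control over both sexes, with sex as a term. None of the 34 genes was called by edgeR's quasi-likelihood test at an adjusted p of 0.05 or less, against 20.9% of the 19752 genes tested. DESeq2's Wald test likewise called 0, and 1 gene, Prss1, had an unadjusted p under 0.05. The median log2 fold change was -0.12, beside -0.01 over all genes tested, with 9 of 34 values above 0. Ctrb1 was at 971, 1236, 1380.1, 2512 and 270.0 CPM in female control libraries and at 719.6, 465, 375 and 1055 CPM in female KO libraries. In males it was at 1559, 525 and 1245 CPM in control and at 4869 and 1067 CPM in KO libraries. The genotypes overlapped for Ctrb1, whose log2 fold change was -0.31 (SE 0.56, adjusted p = 0.757 in edgeR).

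Prss1, a further trypsinogen, gave the smallest p: its log2 fold change was 2.21 (SE 0.91, adjusted p = 0.0977 in edgeR). Prss1 ran from 10 to 212 counts in the 8 control libraries and from 4 to 2455 counts in the 6 KO libraries, and the genotypes overlapped. Without male KO replicate 1 its value was 1.29. It was called without female control replicate 4 (adjusted p = 0.0321) or female KO replicate 3 (0.0379), without the filter on low counts (0.0373) and without the sex term (0.0488), all in edgeR. Gm5771 ran from 5.39 to 46.4 CPM in control and from 1.13 to 313 CPM in KO libraries (log2 fold change 0.995, SE 0.84, adjusted p = 0.460 in edgeR). Without male KO replicate 1 that value was 0.21.

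The genotypes were also compared within each sex. The interaction of genotype with sex was above 0 for 34 of 34 genes, with a median of 2.39 on the log2 scale beside -0.00 over all genes. None was called by edgeR, against 0% of the 19752 genes, though 32 of the 34 had an unadjusted p under 0.05, and DESeq2 called 0 of the 34 as well. The 34 genes are not independent of each other: male KO replicate 1 held the highest CPM of 33 of them. Ctrb1 gave a log2 fold change of -1.23 (SE 0.57) in females and 1.25 (SE 0.74) in males. Prss2 gave -1.17 (SE 0.57) in females and 1.22 (SE 0.74) in males. The male side rests on 2 KO libraries, of which replicate 1 had the 3.20% share. Without it the median of the interaction was 0.79, and without male KO replicate 2 it was 3.10.

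In the Reg family the interaction had a median of 5.23 over its 6 genes. Without male KO replicate 1 the interaction of Reg3a went from 5.45 to 1.80 and that of Reg3b from 5.54 to 1.93. Reg2 was at 40.9, 93.0, 146, 320.2 and 9.93 CPM in female control islets. It was at 46.4, 13.0, 0.565 and 0.302 CPM in female KO islets, so that replicates 3 and 4 of that group held almost none. In males Reg2 was at 154, 14.01 and 42.0 CPM in control and at 445 and 51.3 CPM in KO islets. In the same female KO replicates 3 and 4, Reg1 was at 46.9 and 101 CPM, inside the range of the female controls (37.8 to 209 CPM). Per 1000 enzyme counts Reg2 was at 0.289 and 0.0604 in those libraries and at 5.97 to 33.6 in the other 12 Tfam islets. Reg3a had 2 counts in each of them and Reg3b 2 and 8. The log2 fold change of Reg2 was -3.34 (SE 1.28) in females and 1.66 (SE 1.51) in males. Over both sexes it was -1.52 (SE 1.42, adjusted p = 0.508 in edgeR), and leaving out 1 library moved it from -2.52, without male KO replicate 1, to -0.86, without female control replicate 4.

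**Figure D3:**
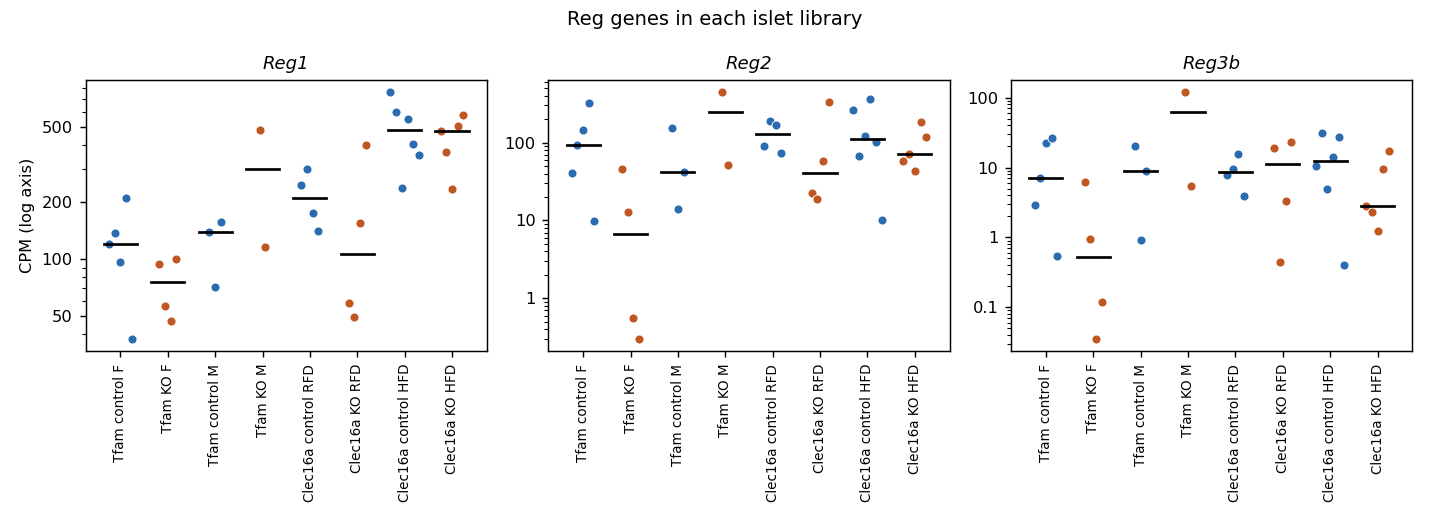
CPM of Reg1, Reg2 and Reg3b in each islet library on log axes, by group, with group medians as lines. Reg1 followed the acinar share, while Reg2 and Reg3b lay near 0 in female Tfam KO replicates 3 and 4 and low in Clec16a control replicate 6 on HFD.

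Reg3g was the gene with the smallest p of the interaction. It encodes a secreted antibacterial lectin. It had 0 to 81 counts in the 12 other Tfam libraries and 451 and 417 counts in the male KO libraries, that is 5.41 and 6.08 CPM. Its interaction was 7.16 (SE 1.53, adjusted p = 0.446 in edgeR), and it was called without the filter on low counts (adjusted p = 0.00994). Unlike the enzymes, Reg3g was as high in male KO replicate 2, whose acinar share was 0.663%, as in replicate 1.

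Islets labelled Clec16a KO were then compared with Clec16a control within each diet. On RFD, 0 of the 33 genes that passed the filter on low counts were called by edgeR, against 7.52% of 17254 genes. DESeq2 also called 0, and 1 gene had an unadjusted p under 0.05. The gene left out was 1810009J06Rik, with 0 to 5 counts per library. The median log2 fold change was -0.41, beside -0.00 over all genes, and 25 of 33 values lay below 0. Ctrb1 was at 2033, 2483, 2209 and 1275 CPM in control and at 648, 548, 1274 and 3798 CPM in KO islets. Replicate 4 of the KO group lay above all 4 controls and the other 3 below all of them. Without that replicate the median log2 fold change was -1.32 and 3 of the genes were called.

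Gm5771 went the other way on RFD: it was at 9.85, 7.21, 6.49 and 2.05 CPM in control and at 17.4, 38.7, 6.16 and 15.3 CPM in KO islets. The groups overlapped through KO replicate 3. The log2 fold change was 1.57 (SE 0.54, adjusted p = 0.0851 in edgeR). Without KO replicate 2 it was 0.97, and without KO replicate 3 it was 1.87 and called (adjusted p = 0.0484). Per 1000 enzyme counts, Gm5771 was at 0.389 to 1.20 in control and at 1.001 to 18.2 in KO islets, and the 2 highest values belonged to the 2 KO libraries with the least acinar RNA. Amy2b was at 1.27 to 2.45 per 1000 in control and 3.84 to 8.07 in KO islets, without overlap (log2 fold change of its level 1.04, SE 0.59, adjusted p = 0.313 in edgeR). Without KO replicate 4 that log2 fold change was 0.33.

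On HFD, 2 of 33 genes were called by edgeR, both higher in KO islets, against 9.58% of the 17254 genes. DESeq2 called 3. The median log2 fold change was -0.30, beside -0.00 over all genes, and 30 of 33 values lay below 0. The 2 genes called were both trypsinogens. Gm5771 was at 0.167 to 0.664 CPM in the 6 controls, with a median of 0.320, and at 2.39, 1.70, 2.57, 0.265 and 1.23 CPM in KO islets. KO replicate 4 overlapped the controls. The log2 fold change was 1.99 (SE 0.59, adjusted p = 0.0361 in edgeR), from 7 to 27 counts in control and 10 to 114 counts in KO libraries.

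Prss1 rested on fewer counts still, with 1 to 5 per library in control and 34, 4, 22, 2 and 8 in KO islets. Its log2 fold change was 2.84 (SE 0.83, adjusted p = 0.0344 in edgeR). Leaving out a library in turn ended the call of Gm5771 in 8 of 11 fits and that of Prss1 in 8 of 11. For Gm5771 these were the fits without control replicates 3 to 6 or KO replicates 1, 2, 3 or 5, and for Prss1 those without control replicates 2 to 6 or KO replicates 1, 3 or 5. The adjusted p then ran up to 0.129 and 0.180. The reading frames of the 2 genes are 97.6% identical, so reads may be split between them and the values are not independent. Both comparisons with KO share their control libraries with the diet comparison below.

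Gp2, the major membrane glycoprotein of the zymogen granule, lay lower in KO islets per count of the 14 enzymes, with overlap on HFD. Its own level was called on neither diet. No share of all genes that separate on this scale is given, here or for Amy2b above. Per 1000 enzyme counts it was at 5.73, 7.72, 7.39 and 7.01 in control and at 4.87, 5.23, 5.35 and 5.24 in KO islets on RFD. On HFD it was at 3.996 to 7.14 in control and at 2.97, 3.41, 3.69, 4.46 and 5.04 in KO islets. The groups did not overlap on RFD and overlapped through control replicate 1 on HFD. Its own level gave a log2 fold change of -0.83 (SE 0.48, adjusted p = 0.328 in edgeR) on RFD and of -0.82 (SE 0.41, adjusted p = 0.240 in edgeR) on HFD. With the summed level of the 14 enzymes as a covariate, a fit added after these data had been seen, Gp2 fell by 0.76 on the log2 scale on HFD (SE 0.15, adjusted p = 0.00324 in edgeR). On RFD that fit gave -0.47 (SE 0.18, adjusted p = 0.110). It called 3 of the 33 genes on HFD, Gp2 and the 2 trypsinogens, against 10.8% of 17254 genes, so calls were no more frequent in the list than among all genes.

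Endothelial markers and part of the fibroblast and stellate markers were higher with the Clec16a KO label. All 7 endothelial markers were called higher in KO islets on both diets by edgeR, against 3.99% of all genes on RFD and 5.62% on HFD, with a median log2 fold change of 0.72 on RFD and 0.55 on HFD. Their summed level was 415 to 449 CPM in control and 732 to 827 CPM in KO islets on RFD, and 401 to 533 against 453 to 991 CPM on HFD, with none of the 7 at 0. Of 9 fibroblast and stellate markers, 3 were called higher on RFD and 6 on HFD, while 9 and 8 of them lay above 0. The other lists held few calls. On each diet 1 of 10 duct markers was called higher. Of 8 macrophage markers and of 6 lymphocyte markers, 1 each was called lower on each diet and 0 higher. All genes called lower made up 3.54% on RFD and 3.96% on HFD. For 8 islet endocrine markers 0 were called on RFD and 1, higher, on HFD. The part of these markers in the values above was not tested.

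HFD was set against RFD within each genotype. In control islets the geometric mean share was 2.05-fold higher on HFD than on RFD, and the lowest HFD library (1.43%) lay just above the highest RFD library (1.42%). In KO islets it was 3.24-fold higher, with overlap. Within the 2 sequencing lanes the log2 ratio in controls was 0.97 and 1.11, beside 1.04 over all libraries. In KO islets it was 1.71 in lane 7, beside 1.69 over all libraries. In lane 8 it was 2.53, but there the RFD side was 1 library, KO replicate 2, which had the lowest share of all Clec16a islets. The SD of log2 share within groups was 0.736, and since the genes were listed with earlier results known, no test of the share is given.

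Gene by gene, the diets split the list in a way that the summed share does not show. In controls, 28 of 33 genes lay higher on HFD, with a median log2 fold change of 1.17 beside -0.00 over all genes, and 24 had an unadjusted p under 0.05. For 12 genes every HFD control lay above every RFD control, which held for 0.493% of the 17254 genes. None of these 12 passed the adjustment over all genes. Most genes of the list kept their proportions between libraries, so the 28, 24 and 12 genes are not independent of each other. The 2 genes that were called, against 0.0406% of all genes, were both trypsinogens and both fell on HFD. They were Gm5771 and Prss3, and for these 2 every HFD control lay below every RFD control, as for 0.968% of the genes.

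Among the proteases, Ctrb1 was at 2371 to 7038 CPM on HFD in controls, with a median of 3274, and at 1275 to 2483 CPM on RFD. These ranges overlapped, and the log2 fold change was 0.95 (SE 0.45, adjusted p = 0.868 in edgeR). Prss2 was at 914 to 2618 CPM on HFD, with a median of 1372, and at 741, 880.3, 691 and 400.2 CPM on RFD, without overlap (1.19, SE 0.48, adjusted p = 0.743 in edgeR). Cpa1 was at 1008 to 2946 CPM and at 560.4 to 924 CPM, also without overlap.

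Among the other enzymes, Pnlip, pancreatic lipase, was at 1454 to 3787 CPM on HFD and 669 to 1265 CPM on RFD in controls. Cel, the bile salt-stimulated lipase, was at 802 to 2405 CPM and at 405 to 719 CPM. Sycn was at 233 to 712 CPM and at 85.8 to 171 CPM (log2 fold change 1.43, SE 0.43, adjusted p = 0.467 in edgeR). None of these 3 genes overlapped between the diets. Amy2b gave the largest positive value among the enzymes, 1.99 (SE 0.57, adjusted p = 0.454 in edgeR), with 23.4 to 104 CPM against 6.78 to 25.2 CPM. In that gene control replicates 2 and 5 on HFD lay below control replicate 2 on RFD.

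Gm5771 was at 0.547, 0.664, 0.387, 0.253, 0.167 and 0.240 CPM in the 6 controls on HFD and at 9.85, 7.21, 6.49 and 2.05 CPM in the 4 on RFD. All HFD values lay under 1 CPM and all RFD values above 2. The log2 fold change was -4.10 (SE 0.58, adjusted p = 0.00388 in edgeR), and the call held in 10 of 10 fits with a library left out. Prss3 was at 0.788 to 2.34 CPM on HFD, with a median of 1.96, and at 16.1, 12.8, 7.02 and 3.38 CPM on RFD. Its log2 fold change was -2.50 (SE 0.42, adjusted p = 0.0393 in edgeR). The direction held in all 10 fits with a library left out, but the call held only without HFD replicate 6 or RFD replicate 4, with an adjusted p of up to 0.248 in the other 8. With lane as a term the adjusted p was 0.0507.

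KO islets gave the same pair. Gm5771 was at 2.39, 1.70, 2.57, 0.265 and 1.23 CPM on HFD and at 17.4, 38.7, 6.16 and 15.3 CPM on RFD, without overlap. It fell by 3.68 on the log2 scale (SE 0.56, adjusted p = 0.0173 in edgeR) and was the only one of the 33 genes called, against 0.0116% of all genes. The call was lost without HFD replicates 1, 2 or 5 or RFD replicate 2 (adjusted p up to 0.0742) and when only the KO libraries were fitted (adjusted p = 0.130). Prss3 was at 2.63, 2.87, 4.14, 1.35 and 4.80 CPM on HFD and at 12.5, 19.5, 8.24 and 28.5 CPM on RFD. It did not pass the main test (-2.55, SE 0.45, adjusted p = 0.0523 in edgeR), but was called by DESeq2 (adjusted p = 0.000339) and by edgeR without the filter on low counts (0.0105). These 2 genes were the ones with every HFD library below every RFD library, as for 0.255% of genes, and for 0 of the 33 did all HFD libraries lie above, as for 1.35%.

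The rest of the list lay higher on HFD in KO islets too, by size: 26 of 33 values were above 0, with a median of 1.16 beside 0.00 over all genes, and 22 had an unadjusted p under 0.05. KO replicate 4 on RFD decided how many passed. Without it 14 genes were called and the median was 2.13. The genotype by diet interaction had a median of 0.10 and 0 of 33 genes called by edgeR, against 0% of the 17254 genes. DESeq2 called 0 as well, and 2 of the 33, Reg3g and Amy2b, had an unadjusted p under 0.05. For Gm5771 the interaction was 0.42 (SE 0.78) and for Prss3 -0.05 (SE 0.63).

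**Figure D4:**
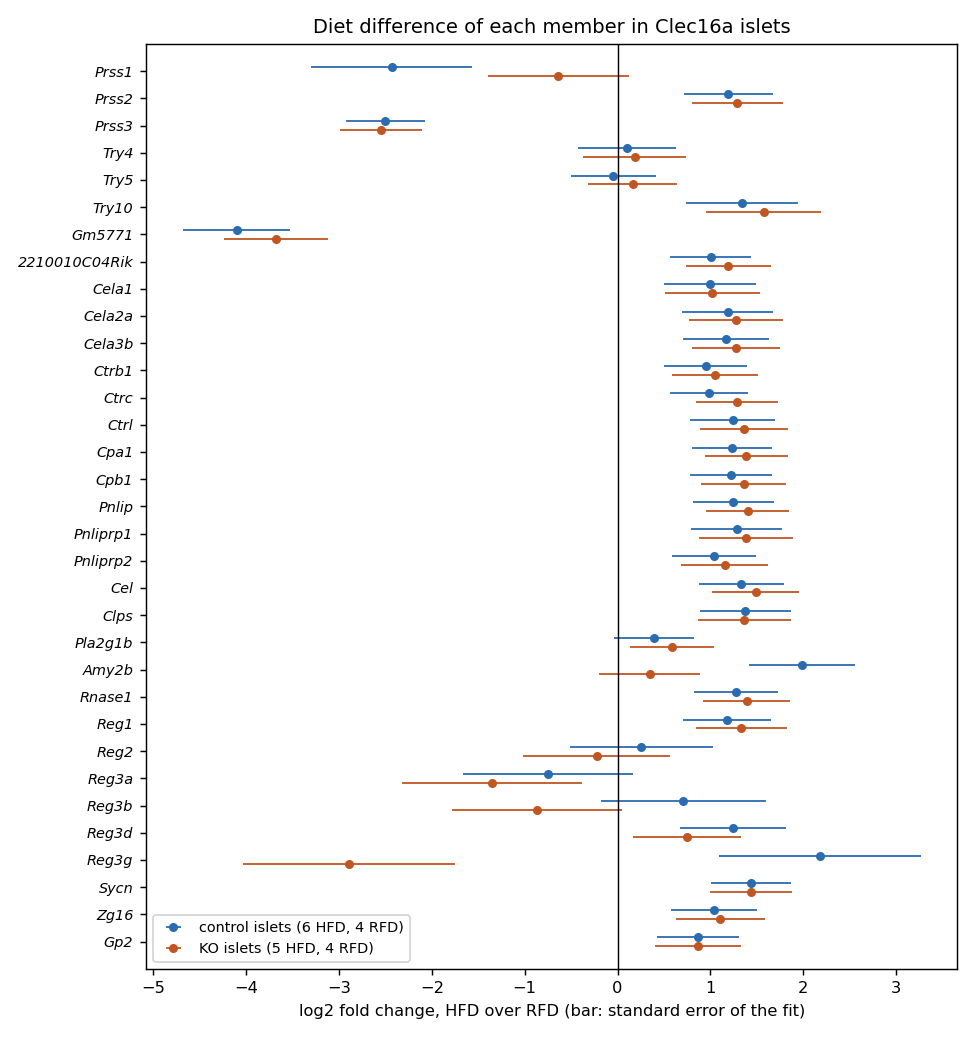
Log2 fold change of HFD over RFD for each of the 33 tested genes, with bars of 1 standard error, in control (blue) and KO islets (orange). Most enzymes lie near 1 in both genotypes, Gm5771 at -4.10 and -3.68 and Prss3 at -2.50 and -2.55 lie far below, and Try4 and Try5 lie near 0.

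Set against the 14 enzymes, the trypsinogens differed from each other. Per 1000 enzyme counts Gm5771 was at 0.0121 to 0.0364 in controls on HFD and at 0.389 to 1.20 on RFD, a ratio of geometric means of 34.8. In KO islets it was at 0.0184 to 0.226 against 1.001 to 18.2, a ratio of 41.7. Prss3 was at 0.0376 to 0.194 against 0.641 to 1.95 in controls and at 0.0940 to 0.365 against 1.49 to 9.15 in KO islets, ratios of 10.9 and 17.9. In none of these 4 comparisons did the diets overlap. Prss1 did not overlap in controls either, at 0.00124 to 0.00730 on HFD, from 1 to 5 counts, with a lowest value of 0.0197 on RFD, but did in KO islets. In the Tfam islets, whose diet the labels do not give, Gm5771 ran from 0.578 to 14.2 and Prss3 from 2.25 to 22.5 per 1000, above every Clec16a library on HFD.

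Try4 and Try5, abundant trypsinogens next to each other in the cluster, also took a smaller share of the acinar counts on HFD. Try5 was at 12.6, 10.3, 13.5, 15.2 and 5.94 per 1000 in KO islets on HFD and at 25.9, 28.4, 24.0 and 21.5 on RFD. In controls it was at 5.33 to 15.5 on HFD and at 30.1, 30.2, 15.1 and 15.4 on RFD. Of these RFD controls, replicates 1 and 2 were in lane 7 and replicates 3 and 4 in lane 8. Try4 split them the same way, at 41.5 and 46.3 against 20.3 and 20.9. In KO islets on RFD, the lane 8 library, replicate 2, was instead the highest for Try5. The part of lane in these values was not tested. The diets did not overlap in KO islets and overlapped in controls. Try4 overlapped in both genotypes, at 11.2 to 26.5 against 20.3 to 46.3 in controls and at 12.4 to 25.0 against 23.8 to 39.3 in KO islets. As levels, neither changed in edgeR: Try4 gave 0.10 (SE 0.53) and Try5 -0.04 (SE 0.46) in controls.

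Prss2 and 2210010C04Rik kept their share. Prss2 was at 77.3 to 93.2 per 1000 on HFD in controls, and the RFD controls overlapped it, with a lowest value of 75.9. Beyond the trypsinogens, Ctrb1 was at 195 to 236 on HFD and 241 to 251 on RFD in controls, and at 206 to 224 against 231 to 275 in KO islets. Neither pair overlapped, although the ratios were only 1.16 and 1.18, and Ctrb1 is itself one of the 14 enzymes. Pla2g1b, a secreted phospholipase A2, was lower by 1.74 and 1.80 times on HFD, again without overlap.

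**Figure D5:**
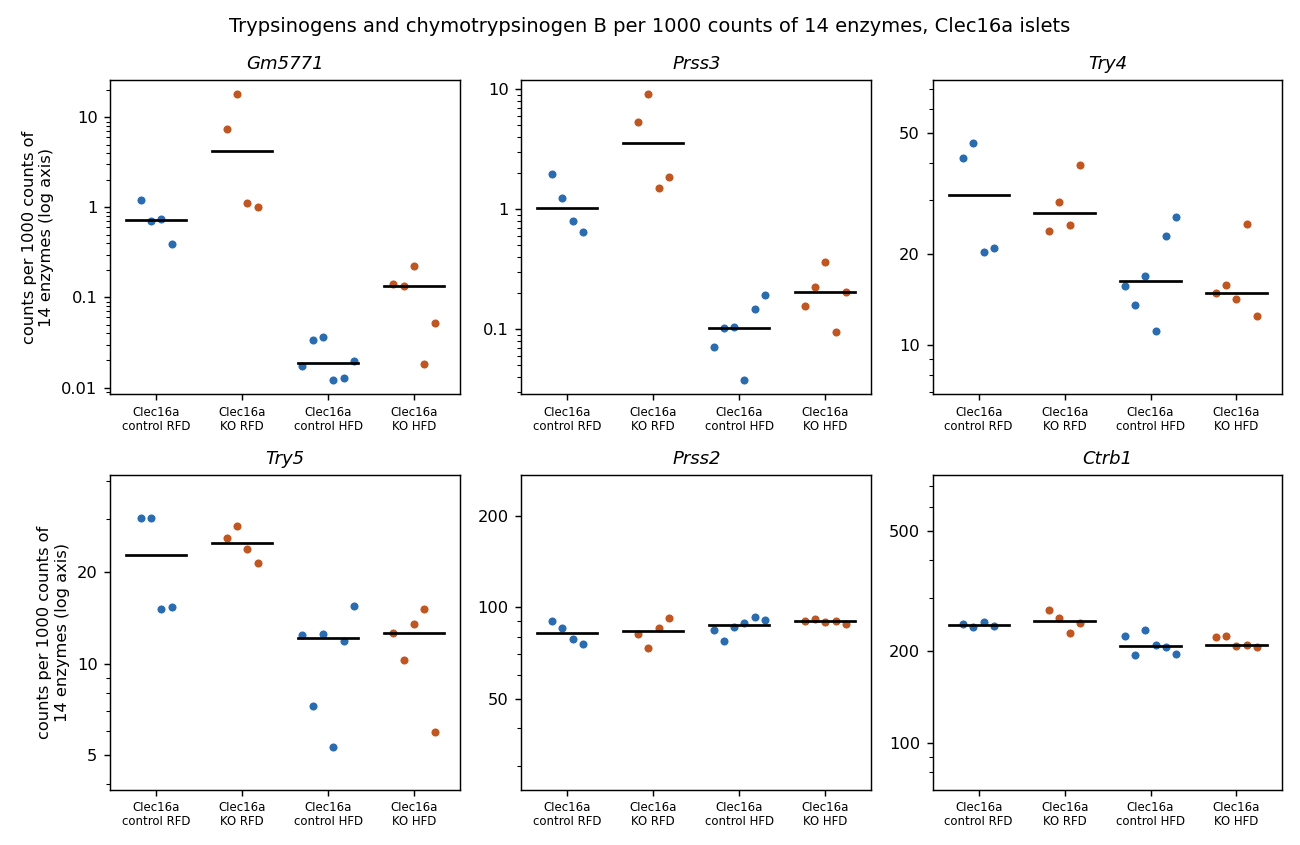
Counts of 5 trypsinogens and Ctrb1 per 1000 counts of the 14 enzymes in the 19 Clec16a islet libraries, on log axes, with group medians as lines. Gm5771 and Prss3 were lower on HFD in every library, Try4 and Try5 lay lower with some overlap, and Prss2 stayed between 73.4 and 93.2.

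With the summed enzyme level as a covariate, in the fit added after these data had been seen, Gm5771 and Prss3 were again the genes called for diet in controls, against 0.0232% of all genes. Gm5771 fell by 3.92 on the log2 scale (SE 0.64) and Prss3 fell by 2.80 (SE 0.45), each with an adjusted p of 0.0283 in edgeR. The median over the 33 genes was then -0.09. In KO islets the same fit called 0 of 33 genes, against 0% of all genes, with 11 at an unadjusted p under 0.05. Gm5771 was at -3.31 (SE 0.69, adjusted p = 0.219) and Prss3 at -3.07 (SE 0.52, adjusted p = 0.130) in edgeR. In the Tfam islets that fit called 10 of 34 genes, all lower in KO islets, against 21.8% of genes. Of these, 8 were among the 14 enzymes themselves, and the other 2 were Prss2 (-0.31, SE 0.06, adjusted p = 0.00092) and Sycn (-0.43, SE 0.11, adjusted p = 0.0105) in edgeR. The 14 enzymes make up the covariate, so these calls cannot show a loss of them as a set. TMM scaling factors were 1.06 to 1.12 in KO and 0.83 to 0.98 in control islets, and their part was not tested. Per 1000 enzyme counts Prss2 overlapped in females, at 69.7 to 78.8 in KO and 73.2 to 89.5 in control islets. In males it was at 78.2 and 79.3 against 79.6 to 82.5.

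The Reg genes again differed from the enzymes and from each other. Reg1 gave log2 fold changes of 1.18 (SE 0.48) in controls and 1.33 (SE 0.49) in KO islets for HFD over RFD, like the enzymes. Reg2 gave 0.26 (SE 0.77) and -0.22 (SE 0.79). Its 6 controls on HFD were at 265, 67.0, 122, 364, 101 and 10.1 CPM, and the last of these, replicate 6, was also the lowest of its group for Reg3a, Reg3b and Reg3d. For Reg3g, replicates 4 and 6 had 5 counts each, the fewest of the group. The Reg1 level of replicate 6, 355 CPM, lay within the range of its group (237 to 766 CPM). Reg3g was at 0.133 to 6.99 CPM in controls on HFD and at 0.117 to 0.431 CPM in KO islets on HFD, and the groups overlapped (log2 fold change -3.05, SE 1.08, adjusted p = 0.0807 in edgeR and 0.0470 in DESeq2). Its interaction of genotype with diet was -5.07 (SE 1.58, adjusted p = 0.9999 in edgeR).

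For diet in controls and for the sex interaction, other acinar genes outside the list moved like the enzymes by size and not by test. Of 14 such genes, 12 lay higher on HFD in controls, with a median log2 fold change of 0.91 and 0 called, and 14 of 14 had an interaction of genotype with sex above 0 in the Tfam islets (median 2.22, 0 called). By edgeR 1 of the 14 was called higher in Tfam KO islets, against 11.6% of all genes. On RFD 1 was called lower in Clec16a KO islets, against 3.54%. Of 5 acinar transcription factors, 0 were called for diet in controls, with a median of 0.91. In KO islets 0 were called for diet as well, with a median of 0.04 and 3 of the 5 above 0. On RFD 1 of the 5 was called higher in Clec16a KO islets, against 3.99% of all genes. The 5 did not rise as a set there: 3 lay above 0 and 2 below, with a median of 0.06. Ptf1a, which defines the acinar lineage, had 0 to 52 counts per islet library. Rbpjl gave 1.09 (SE 0.32, adjusted p = 0.463 in edgeR) for diet in controls and 1.44 (SE 0.34, adjusted p = 0.240) in KO islets. Bhlha15 did not follow the acinar share: it fell by 0.83 on the log2 scale in Tfam KO islets (SE 0.12, adjusted p = 0.000165 in edgeR), where the 34 genes of the list had a median of -0.12. Of 10 duct markers tested, 0 were called for diet in controls (median 0.19), and of 8 islet endocrine markers 0 (median 0.02). In Tfam KO islets 8 of 8 islet endocrine markers lay below 0, with a median of -0.44, and 6 were called lower, against 9.29% of all genes, and the part of this in the acinar share was not tested.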

How the data were processed

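Deposited per-library tables of 33 islet and 13 liver libraries were used, each with gene counts, CPM and TPM. Per the file headers, the authors deposited raw counts, which are used as given; CPM per the deposited files equals count over library total, and TPM is the authors' deposited value. The submitters' processing notes name STAR 2.6.1b, RSEM 1.3.1, featureCounts, DESeq2, FastQC, MultiQC and GRCm38. Which tool made the counts is not given in the sources used here, nor is strand or the treatment of reads that fit several genes.

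Counts were fitted over all genes passing edgeR's filter with its quasi-likelihood test (edgeR 4.0.16, limma 3.58.1, R 4.3.3; TMM scaling), the Tfam and Clec16a sets apart, sex a term for Tfam. Genes were called at a Benjamini-Hochberg adjusted p of 0.05 or less over all genes. DESeq2 1.42.0, scaling, filters, a replicate block, lane, single groups and each library left out were tried. Lane was read from the deposited names of the Clec16a tables. A covariate of 14 enzymes' summed level was added after the data were seen. The fits were tested on simulated data. Figures were drawn with matplotlib 3.10.9.

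The 34 genes, all marker lists and the tests were chosen with earlier results of these data known. Named in each comparison were up to 6 of the genes with the smallest adjusted p, with the gene of highest TPM in each role, Gm5771 and up to 3 genes without overlap; others named were chosen after their values were seen. Total counts were 16235173 to 83342809 per islet library and 41961114 to 56894510 per liver library. Intervals and floors cover counting error only.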

Additional observations from a re-analysis of the deposited data

Results flagged for a closer look

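Of 138 groups of 4 to 6 libraries examined gene by gene, 13 held a library far from the rest of its group by Dixon's criterion. For normally distributed values, chance alone gives this in about 1 group in 20. The values used were CPM without logs, for which that rate need not hold, so the 13 cannot be set against it. The genes share libraries and are not independent.

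Clec16a KO replicate 4 on RFD stood apart in 4 genes: Reg2 at 331 CPM (others 18.9 to 58.3), Reg3a at 37.1 CPM (others 0.440 to 1.19), Reg3d at 20.1 CPM (others 1.66 to 4.06) and Try4 at 602 CPM (others 56.2 to 138). The same library had the highest acinar share of its group, 2.11%.

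Female Tfam KO replicate 1 stood apart in 3 Reg genes: Reg3b at 6.12 CPM (others 0.0353 to 0.937), Reg3d at 3.48 CPM (others 0.935 to 1.07) and Reg3g at 0.217 CPM (others 0 to 0.0353). Female Tfam control replicate 3 had Reg3g at 1.44 CPM (others 0.103 to 0.311).

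Clec16a control replicate 1 on HFD, which had the highest share of all islets, held Try5 at 388 CPM (others 112 to 186) and Prss1 at 0.228 CPM (others 0.0238 to 0.0845), the latter from 5 counts. Clec16a KO replicate 1 on HFD held Prss1 at 1.62 CPM (others 0.0530 to 0.496).

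The trypsinogen 1810009J06Rik was flagged in Clec16a control replicate 3 on HFD at 0.0484 CPM and in Clec16a KO replicate 3 on HFD at 0.0225 CPM, each from 1 count where the other libraries had 0.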

How the results depend on the processing

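Using DESeq2's size factors, leaving the 34 genes out of the library sizes, or asking for a mean of at least 10 counts left the number of genes called in each of the 7 comparisons as it was. Without the filter on low counts, the numbers called were 1 for Tfam KO, 1 for the sex interaction and 2 for diet in KO islets (main values 0, 0 and 1), which added Prss1, Reg3g and Prss3. DESeq2's Wald test gave 2 for diet in KO islets, adding Prss3, and called Reg3g for Clec16a KO on HFD (adjusted p = 0.0470), and leaving out the sex term gave 1 for Tfam KO. With lane as a term diet in controls gave 1, and fitting only the compared groups gave 1 for Clec16a KO on HFD, 1 for diet in controls and 0 for diet in KO islets. The enzyme covariate, chosen after seeing the data, gave 10 for Tfam KO and 0 for diet in KO islets, and moved the median log2 fold change to 0.11 for the sex interaction, -0.0856 for diet in controls and -0.22 for diet in KO islets. Within lane 8 the log2 ratios of the share were -1.64 for Clec16a KO on RFD, 2.53 for diet in KO islets and 1.42 for the interaction of genotype and diet. All 3 rest on 1 library, the only KO library on RFD in that lane. For the numbers called, the cause was not tested.

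With the replicate number as a block, 24 genes were called for the sex interaction, 1 for Clec16a KO on RFD (Gm5771, adjusted p = 0.0444 in edgeR) and 1 for diet in controls, where Prss3 had an adjusted p of 0.0986 in edgeR. Over all genes the block gave 36 calls for the sex interaction (main 0), 975 for Clec16a KO on HFD (main 1653) and 3 for diet in controls (main 7). The labels do not say that equal numbers share an animal, and residuals of same-numbered libraries correlated with a median of 0.0657 (-0.0967 to 0.213, 6 pairs) in the Tfam and -0.0166 (-0.251 to 0.312, 25 pairs) in the Clec16a islets, so the numbers were not taken as pairs.

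Leaving out 1 library at a time, the numbers of genes of the list called ran from 0 to 1 for Tfam KO, 0 to 3 for Clec16a KO on RFD, 0 to 2 for Clec16a KO on HFD, 1 to 2 for diet in controls and 0 to 14 for diet in KO islets. Their median log2 fold changes ran from -0.77 to 0.17, 0.79 to 3.10 (sex interaction), -1.32 to -0.12, -0.50 to -0.06, 0.87 to 1.33, 0.86 to 2.13 and -0.19 to 0.99 (diet interaction). Log2 ratios of the share ran from -0.49 to 0.23, 0.71 to 2.98, -1.37 to -0.43, -0.28 to 0.05, 0.83 to 1.17, 1.33 to 2.28 and 0.29 to 1.24 in the same order. Over all genes, calls ran from 3096 to 4995 for Tfam KO (main 4119), 523 to 1224 for Clec16a KO on RFD (main 1298), 786 to 3369 for Clec16a KO on HFD, 3 to 12 for diet in controls and 0 to 31 for diet in KO islets (main 2), where DESeq2 gave 54 and 42. Without Clec16a KO replicate 4 on RFD the diet interaction of Reg3d turned from -0.49 to 0.91 (leaving out other libraries, it went down to -0.80). Counts of 1 to 5 limit Prss1 in Clec16a controls on HFD.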
